A study of Mus musculus with 8 samples.

Results

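The IFIT and IFITM families are antiviral genes that many cells switch on in answer to interferon. Their members were taken by symbol: Ifit1, Ifit2 and Ifit3 of the IFIT family and Ifitm1, Ifitm2, Ifitm3 and Ifitm6 of the IFITM family. These 7 genes were among 18193 genes that had a probe set with a single symbol on the array, and among 13196 genes bright enough to be tested. Each of the 7 had 1 probe set, and 0 of these probe sets carried a second symbol. Mouse Ifit3 has a near-identical neighbour, Ifit3b, which had no probe set of its own under that symbol, so the Ifit3 value may hold transcripts of both.

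IFIT proteins are cytoplasmic RNA-binding proteins built of tetratricopeptide repeats, and they hold back the translation or replication of foreign RNA. IFITM proteins are small membrane proteins that hinder the fusion of viruses with cell membranes. Both families are classic targets of type I interferon, which acts through promoter motifs called interferon-stimulated response elements (ISRE). Macrophages are a known source of interferon and also respond to it.

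RNA was measured on 8 Affymetrix arrays from 2 established mouse lines, CT26 colon tumour epithelial cells and RAW264 macrophages (RAW). Each line was kept either by itself or in transwell co-culture, in which a porous insert held the RAW cells above the CT26 cells, so that secreted molecules could pass without contact. The comparison addresses how secreted factors from either line bear on transcripts in its partner. There were 2 runs of the experiment and 4 groups with 2 arrays apiece, namely CT26 alone, CT26 in co-culture, RAW alone and RAW in co-culture. Wells received their inserts once the cells had attached for 8 hours, and all cells were kept in RPMI medium, with no added interferon or virus named in the labels. CT26 cells were detached with trypsin before lysis whereas lysis took place on the insert for RAW, so harvest and line cannot be told apart. Values are log2 expression levels, and a gene was called dim on an array below that array's 40th percentile, a floor of 5.21 to 5.28. In these bulk samples, fewer expressing cells and less RNA per cell cannot be told apart.

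The labels were checked against marker genes. All 12 macrophage markers lay above the floor on every RAW array, with summed linear signals of 146642 to 161923 against 1640 to 1841 on the CT26 arrays. The 12 epithelial markers summed to 7351 to 8012 in CT26 and to 601 to 633 in RAW, but Cdh1, Cldn7, Vil1 and Muc1 were too dim to be tested. Most of the CT26 sum came from 3 of the 8 tested markers, Krt18, Krt20 and Tjp1. The others had close means in CT26 alone and RAW alone. These were Krt8 (5.93 and 5.80), Krt19 (5.53 and 5.28), Epcam (6.87 and 6.88), Cldn3 (7.52 and 7.40) and Cldn4 (5.73 and 5.66). The 10 mesenchymal and matrix markers summed to 27531 to 33178 in CT26 and to 496 to 511 in RAW. The label of CT26 as epithelial thus met only part of its marker list, and the part of this in the results was not tested.

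The promoters of the members are shown first, since an ISRE is the element through which both families are known to respond. RefSeq windows of assembly GRCm38.p6, from 250 bases before to 50 bases after an annotated start, were found for 7 of 7 members, in 8 windows. They were searched on both strands for the ISRE core GAAANNGAA, which 8.56% of all 32851 windows hold, and which 0.624% hold at 2 or more places. Counted by gene, 9.76% of 27025 genes held it in at least 1 window. Of the 7 members, 4 held it: Ifit1 and Ifit3 at 3 places each, Ifitm3 at 2 and Ifitm2 at 1. The stretches with these matches follow, with the matches in capitals. Ifit1 (chr19:34640729-34640888, plus strand), Ifit3 (chr19:34583369-34583528, plus strand) and Ifitm2 (chr7:140955962-140956121, minus strand) are the 160 bases before the start, and Ifitm3 (chr7:141010715-141010744, minus strand) is the first 30 bases of the transcript.
Ifit1: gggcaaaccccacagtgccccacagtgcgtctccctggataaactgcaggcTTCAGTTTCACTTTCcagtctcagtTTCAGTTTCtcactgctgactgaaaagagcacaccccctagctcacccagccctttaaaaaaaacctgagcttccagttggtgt
Ifit3: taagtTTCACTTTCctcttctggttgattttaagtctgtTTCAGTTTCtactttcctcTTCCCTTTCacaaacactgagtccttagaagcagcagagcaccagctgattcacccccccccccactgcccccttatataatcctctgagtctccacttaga
Ifitm2: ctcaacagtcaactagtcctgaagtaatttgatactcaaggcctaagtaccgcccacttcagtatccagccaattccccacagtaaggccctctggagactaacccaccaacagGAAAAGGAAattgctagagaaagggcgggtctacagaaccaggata
Ifitm3: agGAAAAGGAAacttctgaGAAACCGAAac
In Ifit1 and Ifit3 the core runs on the other strand and is therefore read as its complement, and the first 2 matches of Ifit1 overlap. The matches of Ifit1 begin at -109, -103 and -84 from the start and those of Ifit3 at -155, -121 and -102. The relative Ifit3b held 3 matches as well, beginning at -187, -153 and -134. The match of Ifitm2 begins at -46, while both of Ifitm3 lie inside the transcript, from positions 3 and 20.

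No match of the core was found in the windows of Ifit2, Ifitm1 and Ifitm6, which says only that these letters are not in these windows. The core followed by 1 more A was found in the same 4 members and in 3.44% of all windows (3.99% of genes). The gamma-activated site (GAS) motif TTCNNNGAA was found in Ifit2, Ifitm3 and Ifitm6, and in 8.3% of all windows (9.55% of genes). In Ifitm3 the GAS match overlaps the second ISRE core match. A match describes the sequence and was not measured as a bound site.

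**Figure D1:**
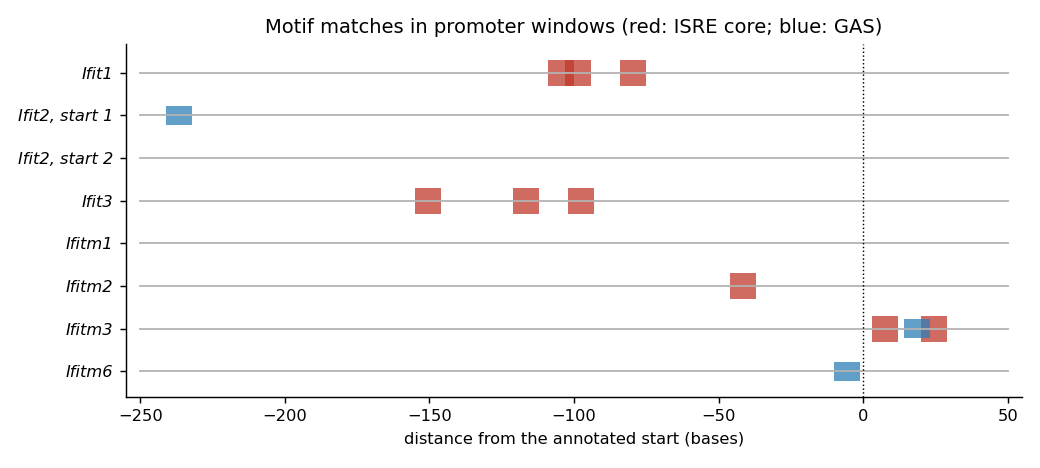
Each line is a promoter window of a member, with distance from the annotated start in bases on the horizontal axis; red blocks are matches of the ISRE core and blue blocks matches of the GAS motif. Matches of the core stand in 4 of the 7 members, upstream of the start in Ifit1, Ifit3 and Ifitm2 and just inside the transcript in Ifitm3.

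The lines differed first in which members they expressed when grown alone. Ifitm1, which acts mainly at the cell surface, was a CT26 transcript, and Ifitm6 was a RAW transcript. Ifit1 and Ifit2 were lower in RAW than in CT26, while Ifitm2 and Ifitm3, which act mainly in endosomes, stood at like levels in both lines. With limma and Benjamini-Hochberg adjustment over the 13196 genes, 1 of 7 members had a higher level in RAW and 3 of 7 a lower one when both lines were alone. Across all tested genes, 17.0% were higher and 17.6% lower.

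Ifitm1 measured 11.83 and 11.18 in CT26 alone (experiments 1 and 2) and 11.17 and 11.13 in CT26 co-culture. In RAW it measured 5.42 and 5.36 alone and 5.62 and 5.35 in co-culture, just above the floor. The lines did not overlap, and RAW alone was lower by 69.3-fold (log2 difference -6.11 ± 0.22 SE, limma adjusted p = 1.8e-06). In co-culture the log2 difference was -5.66 ± 0.22 (adjusted p = 2.7e-06). With RAW this close to the floor, these folds may understate the difference.

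Ifitm6 showed the opposite distribution. It measured 10.23 and 10.49 in RAW alone and 10.50 and 10.58 in RAW co-culture, against 5.12 and 5.63 in CT26 alone and 5.47 and 5.28 in CT26 co-culture. Only 1 of the 2 CT26 alone arrays lay above the floor. RAW alone was higher by 31.7-fold (log2 difference 4.99 ± 0.19, limma adjusted p = 2.8e-06), and the difference in co-culture was 5.17 ± 0.19 (adjusted p = 2.5e-06). With CT26 near the floor, these folds too may understate the difference. Ifitm1 and Ifitm6 both lie on chromosome 7 of GRCm38.p6, yet each was near the floor in the line where the other was high.

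Ifitm2 was the steadiest member. Its 8 values ran from 11.95 to 12.25, a range of 0.30. RAW alone, at 12.00 and 12.25, spanned both CT26 alone arrays, at 12.09 and 12.08, while the other pairs of groups were apart by small margins or overlapped. RAW alone minus CT26 alone was 0.039 ± 0.126 (limma adjusted p = 0.85), with a 95% interval from -0.26 to 0.34.

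Ifit1, which binds RNA whose cap lacks the methyl marks of host mRNA, measured 7.52 and 7.75 in CT26 alone and 4.61 and 5.32 in RAW alone. Only 1 of these 2 RAW arrays lay above the floor. The groups did not overlap and the log2 difference was -2.67 ± 0.48 (limma adjusted p = 0.0050). Ifit2, another RNA-binding member, measured 8.15 and 8.10 in CT26 alone and 7.18 and 6.89 in RAW alone, again without overlap, a difference of -1.09 ± 0.16 (adjusted p = 0.0017).

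Ifit3, which joins other IFIT proteins in complexes, measured 6.51 and 6.36 in CT26 alone and 5.66 and 5.86 in RAW alone. RAW was lower on both arrays, but the difference of -0.67 ± 0.22 missed the threshold (limma adjusted p = 0.052). It passed with the experiment as a block, at an adjusted p of 0.032 with 1 shift shared by the lines and 0.0019 with a shift per line. With either block 4 members were lower, where 27.4% (shared) and 30.4% (per line) of all genes were.

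**Figure D2:**
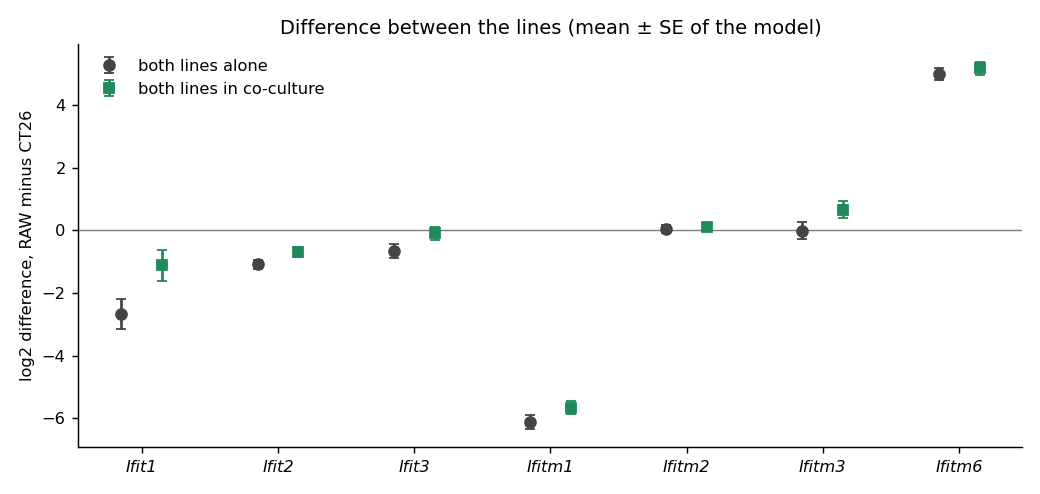
Points give the log2 difference RAW minus CT26 for each member, with both lines alone (circles) or in co-culture (squares), and bars are the SE of the model. Ifitm1 lies near -6 and Ifitm6 near 5 in both conditions. Every member lies higher in co-culture than alone, Ifit1 by the most and Ifitm2 by the least.

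In RAW cells, the co-culture arrays of Ifit1, Ifit2, Ifit3, Ifitm3 and Ifitm6 all lay above those of RAW alone, so 5 of 7 members did not overlap between the groups. Of all tested genes, 14.2% did so in this direction. The differences ranged from 1.96 log2 units for Ifit1 to 0.18 for Ifitm6, and Ifitm1 and Ifitm2 overlapped. Under limma without a term for the experiment, 0 of 7 members passed the threshold in either direction, against 0.167% of all genes that were higher. At an unadjusted p under 0.05 there were 4 members, Ifit1, Ifit2, Ifit3 and Ifitm3, among 694 of 13196 genes. With a block shared by the lines 0 members passed (0.508% of all genes were higher), while a separate block for each line let 3 pass, all of them higher: Ifit1, Ifit3 and Ifitm3 (1.55% of all genes). That fit leaves 2 residual degrees of freedom, and a rise of these 3 members in RAW rests on it alone.

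Ifit1 measured 4.61 and 5.32 in RAW alone and 6.13 and 7.71 in RAW co-culture. Co-culture was higher by 1.52 in experiment 1 and by 2.39 in experiment 2, so Ifit1 was the only member past 1 log2 unit in both, as were 0.440% of all genes. The mean difference was 1.96 ± 0.48, or 3.88-fold (limma adjusted p = 0.39 without a block, 0.063 with the shared block, 0.0033 with a block per line). Since RAW alone lay near the floor, the fold may be understated.

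Ifitm3, the family member best known for blocking influenza virus, measured 12.68 and 13.37 in RAW alone and 13.62 and 14.22 in RAW co-culture. The groups did not overlap, and the change was nearly the same in both experiments, 0.94 and 0.85, although the second experiment stood higher in both conditions. The mean difference was 0.89 ± 0.27, or 1.86-fold (limma adjusted p = 0.63 without a block, 0.12 shared, 0.0026 per line).

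Ifit3 measured 5.66 and 5.86 in RAW alone and 6.20 and 6.71 in RAW co-culture, without overlap. It was higher by 0.54 and 0.84 in the 2 experiments, with a mean of 0.69 ± 0.22 (limma adjusted p = 0.70 without a block, 0.24 shared, 0.025 per line). Ifit2 measured 7.18 and 6.89 alone and 7.34 and 7.63 in co-culture, also without overlap. Its experiments gave 0.16 and 0.73 and its mean of 0.45 ± 0.16 passed under no fit (adjusted p = 0.77, 0.26 and 0.15).

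The other IFITM members differed little in RAW. Ifitm6 gave 0.18 ± 0.19 with limma (95% interval -0.28 to 0.65), Ifitm1 gave 0.098 ± 0.217 (-0.42 to 0.61) and Ifitm2 gave -0.013 ± 0.126 (-0.31 to 0.29). None of these passed in any of the 3 fits. The summed epithelial markers were 602 to 615 in RAW alone and 601 to 633 in RAW co-culture. The summed mesenchymal and matrix markers were 496 to 509 and 500 to 511. The part of CT26 RNA in the RAW samples was not tested. Of the 12 macrophage markers 1, Adgre1, was lower in RAW co-culture with a block per line (-0.75 ± 0.30, limma adjusted p = 0.92 without a block, 0.088 shared, 0.031 per line). Csf1r, Adgre1 and Fcer1g were lower in RAW co-culture without overlap. Lcp1 was higher without overlap, as 14.2% of all genes were. The part of these markers in the results was not tested.

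In CT26 cells, 0 of 7 members passed under limma with or without a block, and 0% of all genes were called higher without a block and 0% with a block per line. At an unadjusted p under 0.05 there were 107 of 13196 genes and 0 members. Ifit1 measured 7.52 and 7.75 alone and 8.07 and 8.01 in co-culture, and Ifitm3 13.05 and 13.03 alone and 13.26 and 13.26 in co-culture. Both were higher without overlap, by 0.40 ± 0.48 and 0.22 ± 0.27, as 9.69% of all genes were in this direction. Ifitm1 and Ifitm2 were lower without overlap, by -0.35 ± 0.22 and -0.087 ± 0.126, as 11.3% of all genes were.

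Ifit2, Ifit3 and Ifitm6 overlapped between the CT26 groups, with differences of 0.054 ± 0.156, 0.12 ± 0.22 and 0.0023 ± 0.195. For Ifitm1 the difference was -0.66 in experiment 1 and -0.049 in experiment 2, so most of its mean came from the first CT26 alone array at 11.83. Macrophage markers summed to 1740 to 1841 in CT26 alone and to 1640 to 1701 in CT26 co-culture. Most of this sum was Cd14 (mean 10.24 alone and 10.09 in co-culture), so it says little about the other markers. Of the 12 markers, Csf1r and Itgam were higher without overlap (9.69% of all genes). Cd68, Cd14, Spi1 and Lcp1 were lower without overlap (11.3% of all genes). The part of RAW RNA in the CT26 samples was not tested.

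**Figure D3:**
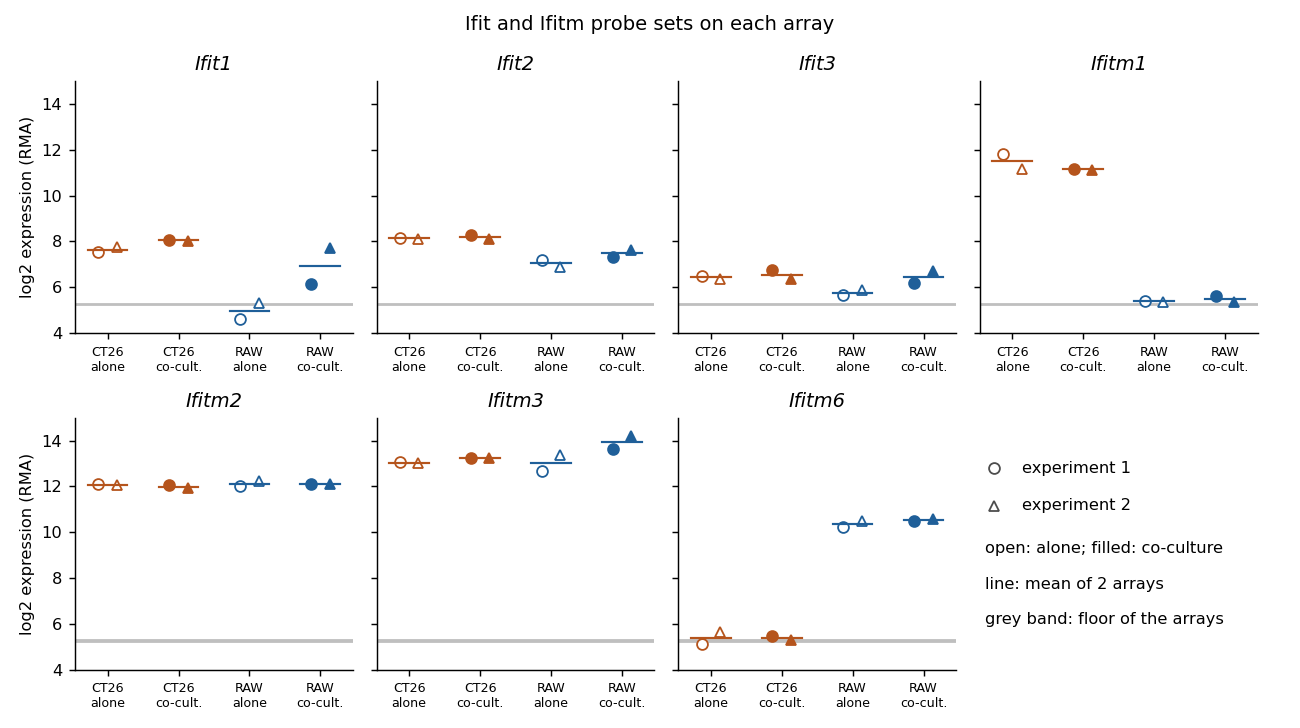
Each panel gives the log2 expression of a member on the 8 arrays by group, with experiment 1 as circles, experiment 2 as triangles, group means as lines and the floor of 5.21 to 5.28 as a grey band. Ifitm1 and Ifitm6 separate the lines, and Ifit1, Ifit2, Ifit3 and Ifitm3 stand higher in RAW co-culture than in RAW alone.

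The response of RAW was then set against that of CT26 by testing the difference of the effects. It was largest for Ifit1, at 1.55 ± 0.69 log2 units (0.97 in experiment 1 and 2.13 in experiment 2), followed by Ifitm3 at 0.67 ± 0.38 (0.73 and 0.62). For 0 of 7 members did it pass under limma, and 0.00758% of all genes were higher; at an unadjusted p under 0.05 there were 328 genes and 0 members. Blocking within each line gave adjusted p-values of 0.076 for Ifit1 and 0.074 for Ifitm3, and 0.386% of all genes were higher. A larger response of these genes in RAW than in CT26 was therefore not shown by this test.

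**Figure D4:**
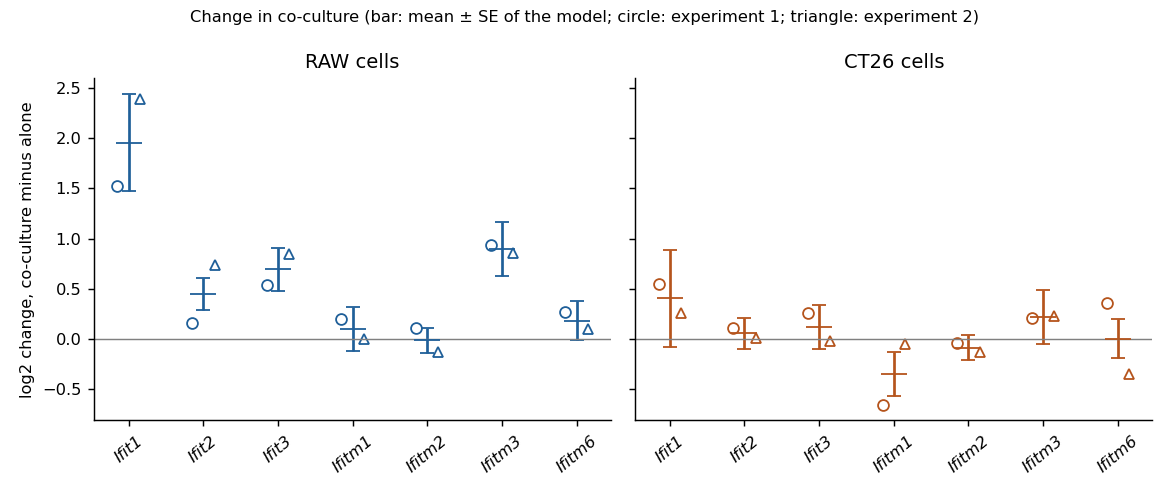
Horizontal bars give the log2 change from alone to co-culture for each member in RAW (left) and CT26 (right), vertical bars the SE of the model, and symbols the change within each experiment. In RAW, Ifit1 was higher by 1.52 and 2.39 and Ifitm3 by 0.94 and 0.85, while in CT26 every member lay between -0.66 and 0.55 in each experiment.

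The order of the 4 groups differed from member to member. Ifit1 ran from CT26 co-culture (mean 8.04 ± 0.05 SD, n = 2) over CT26 alone (7.64 ± 0.16) and RAW co-culture (6.92 ± 1.12) to RAW alone (4.96 ± 0.50), and RAW co-culture overlapped CT26 alone. Ifit3 in RAW co-culture (6.46 ± 0.36) overlapped both CT26 groups (6.43 ± 0.10 alone, 6.55 ± 0.30 in co-culture), and only RAW alone (5.76 ± 0.14) stood apart. Ifitm3 was highest in RAW co-culture (13.92 ± 0.43), above CT26 co-culture (13.26 ± 0.0019), CT26 alone (13.04 ± 0.01) and RAW alone (13.02 ± 0.49), whose arrays spanned those of CT26. Ifit2 stayed lower in RAW (7.48 ± 0.20 in co-culture, 7.04 ± 0.20 alone) than in CT26 (8.18 ± 0.11 and 8.13 ± 0.04).

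Between the co-cultured lines, limma called 1 of 7 members higher in RAW (Ifitm6; 17.7% of all genes) and 2 lower (Ifit2 and Ifitm1; 17.0%). Ifit2 was lower by -0.70 ± 0.16 (adjusted p = 0.013). With the shared block 2 were higher and 3 lower (26.2% and 25.9% of all genes), and likewise with a block per line (29.0% and 28.9%). The additions were Ifitm3, higher by 0.66 ± 0.27 (adjusted p = 0.11 without a block, 0.028 shared, 0.00041 per line), and Ifit1, at -1.12 ± 0.48 (0.13, 0.033 and 0.0020). Ifit1 differed by -1.94 in experiment 1 and by -0.30 in experiment 2.

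The members were next placed beside other genes of the interferon pathway, from lists chosen with earlier results of these data known. The median change of the 7 members in RAW was 0.45 log2 units, against 0.0083 over all tested genes and 1.64 over 28 other interferon-stimulated effectors. Of these 28, 6 rose without a block, 18 did under the shared block and 24 under a block in each line, and 0 fell. Of all tested genes, 0.167%, 0.508% and 1.55% rose in RAW under these fits. Rtp4 (4.77 ± 0.48, limma adjusted p = 0.026) and Usp18, a brake on interferon receptor signalling (4.51 ± 0.48, adjusted p = 0.026), changed most. Oas2 (2.12 ± 0.27), Oasl1 (2.35 ± 0.21), Eif2ak2, which encodes the RNA-activated kinase PKR (1.29 ± 0.13), and Sp100 (1.63 ± 0.21) also rose without a block, at limma adjusted p-values of 0.023 to 0.049. The shared block added Mx2, Oas1a, Bst2, Ifi35, Ifi27l2a, Xaf1, Parp9, Parp14, Dtx3l, Samd9l, Ddx60 and Lgals3bp, and the block in each line added Oas3, Oasl2, Isg20, Rsad2, Trim21 and Adar. In CT26 the median was 0.054 over the members, 0.45 over the effectors and -0.012 over all tested genes. There 0 of the 28 effectors passed under any fit. Without overlap, 13 of the 28 were higher in CT26 co-culture and 0 were lower, against 9.69% and 11.3% of all genes.

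Upstream components were measured as well, beside the same shares of all genes rising in RAW (0.167%, 0.508% and 1.55%). Of 8 STAT and IRF factors tested, Irf7, the factor that amplifies interferon production, rose in RAW by 3.74 ± 0.47 (limma adjusted p = 0.045), and Stat2 (1.30 ± 0.49) and Irf9 (1.57 ± 0.29) passed with a block per line alone (adjusted p = 0.0024 and 0.00028). Among 8 RNA sensors and adaptors, Dhx58 rose by 3.12 ± 0.33 (adjusted p = 0.026), and Ddx58 and Ifih1, the sensors RIG-I and MDA5, joined it with either block (2.67 ± 0.35 and 1.84 ± 0.30). Of 8 receptors and kinases 0 passed, with Ifnar1 at 0.0040 ± 0.156 and Ifnar2 at -0.057 ± 0.129.

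The interferon transcripts did not pass in co-culture. Of 15 listed, 10 were on the array and 4 were bright enough to be tested, and 0 passed in either line under any fit. Ifnb1 gave 0.076 ± 0.149 in RAW and -0.018 ± 0.149 in CT26 with limma (adjusted p = 1.00 in both). Ifnb1 lay near the floor on all 8 arrays, from 5.02 to 5.33, and only RAW co-culture had both arrays above it. A change at this level could be missed. Ifna1 gave 0.22 ± 0.14 and Ifna9 -0.0084 ± 0.179 in RAW. Ifnz showed the largest difference of the 4. It measured 5.85 and 6.21 in RAW alone and 5.36 and 5.69 in RAW co-culture, lower without overlap, at -0.51 ± 0.18 (limma adjusted p = 0.79 without a block, 0.20 shared, 0.056 per line). In CT26 Ifnz lay between 7.16 and 7.42, and RAW alone was lower than CT26 alone by -1.23 ± 0.18 (adjusted p = 0.0019). Of the other IFIT and IFITM relatives, Ifitm5 (0.064 ± 0.127 in RAW) and Ifitm10 (-0.10 ± 0.13) did not pass, and Ifit1bl1, too dim to be tested, was 0.47 and 0.55 higher in RAW co-culture in the 2 experiments. Of 8 genes of IFITM trafficking and modification, Setd7, a methyltransferase that acts on IFITM3, gave -0.50 ± 0.13 in RAW and passed with a block per line alone (adjusted p = 0.028).

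**Figure D5:**
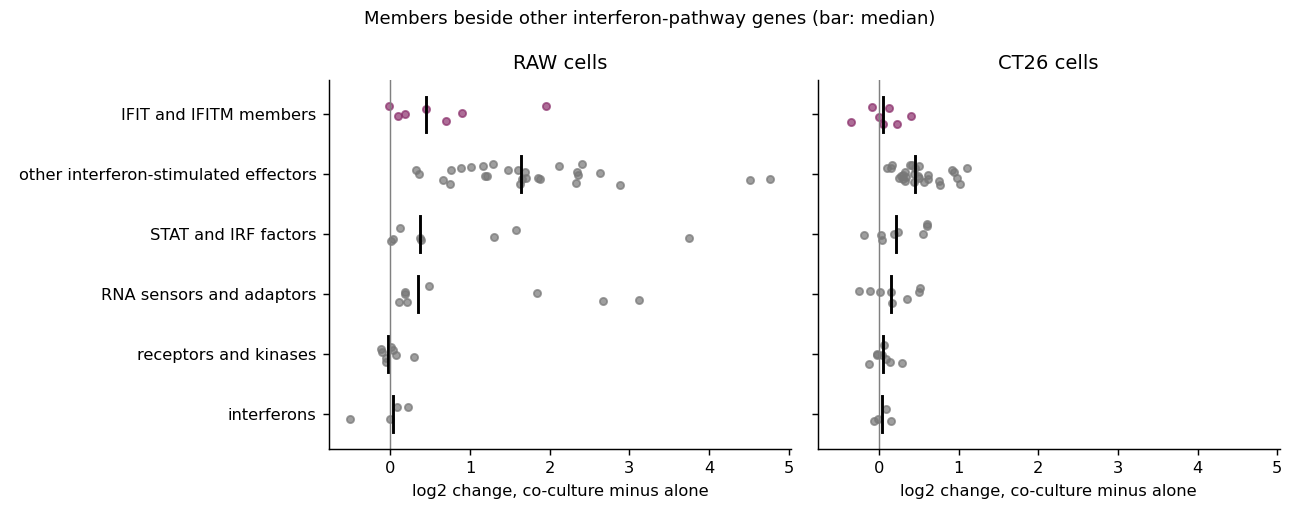
Points give the log2 change from alone to co-culture of the tested genes of each list in RAW (left) and CT26 (right), and black bars the median of each list. In RAW the members have a median of 0.45 and the other effectors one of 1.64, with receptors, kinases and interferons near 0.

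Finally, for each member the 3 genes with the most similar profile over the 8 arrays were found among 3461 genes that varied by an SD of at least 0.5. The points share line and experiment, so Pearson's r is given as a description. Ifit3 was most like Rsad2 (0.96), Oasl2 (0.94) and Ifi202b (0.91), and Ifitm3 most like Lgals3bp (0.98), Stat2 (0.97) and Oas3 (0.95). Ifit1 was nearest to Gch1 (0.98), Cdc42ep2 (0.97) and Oasl2 (0.97), and Ifit2 to Cd164 (0.99), Eps8 (0.98) and Tmem171 (0.98). For Ifitm1 (Slc14a1, Sgms2 and Lancl3) and Ifitm6 (Ly86, Hacd4 and Ms4a6b) r was 0.999 throughout. Ifitm2, with its flat profile, reached 0.79 with Marf1, 0.77 with Zfp950 and 0.74 with Kcnq1ot1.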

How the data were processed

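The authors deposited log2 expression values made by RMA with affy, per the submitters' processing notes. Their versions are not given in the sources used. Array medians lay between 5.88 and 5.94, and RMA compresses low signals. Of 45037 probe sets other than 64 controls, 34945 had 1 symbol in the platform annotation, 932 had several and 9160 were not listed. A gene was represented by its brightest probe set with 1 symbol and tested if both arrays of some group had it above their 40th percentile.

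Group means were modelled jointly over the 8 arrays using limma 3.58.1 under R 4.3.3 (4 residual degrees of freedom), two-sided, with Benjamini-Hochberg adjustment over 13196 genes and a threshold of 0.05. The code was tested on simulated data. The labels' replicate numbers mark the 2 occasions of the experiment, and arrays with the same number deviated together from the means of their groups (correlation across genes 0.754 for CT26, 0.765 for RAW, 0.484 to 0.561 across lines), so the numbers pair the samples. Models with a block for the experiment, as 1 shift for both lines (3 residual degrees of freedom) or per line (2), stand beside results that they change. The SE beside a log2 difference is always that of the fit without a block, also where the adjusted p-value given is that of a block. The p-values measure the spread between arrays of 2 experiments, and an exact permutation test of 2 against 2 arrays cannot go below 0.333.

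Other alternatives were averaged probe sets, no floor, a floor at the 60th percentile, cyclic loess, a variance trend, the arrays of a line alone and leaving out each array. Genes named in the text are the 7 members, the 3 most like each by Pearson's r, and genes drawn from the lists, where the rule allows called genes, the largest changes and any interferon, receptor, STAT, IRF or family relative. The members and lists were chosen with earlier results of these data known. Promoter windows are those of RefSeq on GRCm38.p6. Protein sequences were not used here.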

Additional observations from a re-analysis of the deposited data

How the results depend on the processing

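Of 534 alternative values of single members, 503 kept their direction and side of the threshold, 16 passed it newly, 2 no longer passed and 13 changed sign. Many of these directions were fixed in advance. The blocks, the floors, the variance trend and the fits of 1 line return the same log2 difference. So does averaging probe sets, as each member has 1. Direction could change only with cyclic loess or when an array of the compared groups was left out. The pairing mattered most: with a replicate block per line, members called in RAW went from 0 to 3, and in RAW co-culture minus CT26 co-culture from 3 to 5 with either block. Calls over all genes in RAW went from 33 to 146 with the shared block and to 470 per line, to 4 with the arrays of RAW alone in the fit, and ranged from 2 to 30 when an array was left out. For the difference of the effects they went from 1 to 11 and 98 with the blocks and to 4 with a variance trend, and between the lines from 4563 to 6978 and 7735 (alone) and from 4587 to 6873 and 7652 (co-culture). Members called in CT26 and in the difference of the effects stayed at 0 under every alternative run. Leaving out 1 array gave 4 to 5 members between the lines alone and 2 to 4 in co-culture, where Ifit2 lost its call without the first CT26 co-culture array (adjusted p = 0.074) or the first RAW co-culture array (0.069), and Ifit1 gained one at -1.91 without the second RAW co-culture array (0.0057). The sign changes all concerned values that did not pass. With cyclic loess Ifitm3 between the lines alone became 0.054. With 1 array left out, Ifitm3 there ran from -0.36 to 0.33 and Ifitm2 from -0.084 to 0.16. In RAW, Ifitm1 ran from -0.033 to 0.23 and Ifitm2 from -0.14 to 0.11. In CT26, Ifitm6 ran from -0.25 to 0.26, Ifit2 from -0.022 to 0.13 and Ifit3 from -0.093 to 0.33. Between the co-cultures Ifit3 ran from -0.35 to 0.15, and in the difference of the effects Ifitm2 ran from -0.050 to 0.20 and Ifitm6 from -0.076 to 0.44. The cause was not tested. The number of arrays limits every value, and Ifit1 and Ifitm1 in RAW and Ifitm6 in CT26 lay near the floor.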

Other observations

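The difference between the 2 experiments varied by gene and group. In RAW co-culture the second experiment was higher than the first by 1.58 log2 units for Ifit1, 0.61 for Ifitm3 and 0.50 for Ifit3, and in RAW alone by 0.71, 0.69 and 0.20. For the same genes it was -0.064, 0.0026 and -0.43 in CT26 co-culture and 0.23, -0.020 and -0.15 in CT26 alone. Over the 28 other interferon-stimulated effectors the median difference was 0.26 in RAW co-culture, with 25 higher in the second experiment, 0.068 in RAW alone, with 16 higher, -0.66 in CT26 co-culture, with 2 higher, and -0.40 in CT26 alone, with 4 higher. All 8 STAT and IRF factors were higher in the second experiment in RAW alone (median 0.80) and in RAW co-culture (0.73), and their medians in CT26 were -0.093 alone and -0.045 in co-culture. Over all tested genes the medians lay between -0.011 and 0.025. Of all tested genes, 48.4% were higher in the second experiment in RAW co-culture and 50.5% in RAW alone. In CT26 these shares were 53.1% in co-culture and 54.2% alone. The differences between the experiments rest on 1 array per experiment and group and were not tested.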
